A study of Mus musculus with 10 samples.

Results

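The IFIT and IFITM genes are 2 families of interferon-induced antiviral genes. Their 9 members in the table were chosen by gene symbol, out of 20813 genes: Ifit1, Ifit2, Ifit3 and Ifit3b, and Ifitm1, Ifitm2, Ifitm3, Ifitm6 and Ifitm10. They were measured by strand-specific RNA sequencing of 10 leukemic spleens of C57BL/6 mice, from cell suspensions whose red cells had been lysed. Each recipient was irradiated below the lethal dose and injected intravenously with a T-cell acute lymphoblastic leukemia (T-ALL, a cancer of immature T cells) carrying a conditional Sirt1 allele. The group of 5 labelled Sirt1 deleted and the group of 5 labelled Control share this kind of leukemia and host. The treatments were tamoxifen at 3 mg per mouse in corn oil or corn oil alone, and the abbreviations TMX and VEH in the sample titles divide the samples exactly as the genotype labels do, so genotype and treatment cannot be told apart. The Cre driver, the age and sex of the mice, and whether the samples come from 1 or several primary leukemias are not given in the sources used here. P-values therefore measure only the spread between these samples, which may be in part technical. Each sample carries the number of its title.

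IFIT proteins are cytosolic proteins built of tetratricopeptide repeats. They bind RNA that lacks the host's cap modifications, or bind one another, and so limit the translation of viral RNA. IFITM proteins are small membrane proteins that hinder the fusion of virus particles with cell membranes at the surface or in endosomes. Type I interferon induces members of both families through transcription factors that bind the interferon-stimulated response element in promoters, whereas several IFITM genes are also expressed without interferon in stem cells and myeloid cells.

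The genes of each family lie together. In the mm10 build (GENCODE M21 annotation), Ifit2 (ENSMUSG00000045932.12), Ifit3 (ENSMUSG00000074896.3), Ifit3b (ENSMUSG00000062488.9) and Ifit1 (ENSMUSG00000034459.8) follow one another on the plus strand of chromosome 19. They occupy positions 34550694 to 34576419, 34583531 to 34588731, 34607970 to 34613401 and 34640871 to 34650009. On chromosome 7, Ifitm2 (ENSMUSG00000060591.9) lies on the minus strand at 140954837 to 140955987 and Ifitm1 (ENSMUSG00000025491.14) on the plus strand at 140967221 to 140969825. Ifitm3 (ENSMUSG00000025492.6, 141009586 to 141010770) and Ifitm6 (ENSMUSG00000059108.4, 141015699 to 141017924) follow on the minus strand. Ifitm10 (ENSMUSG00000045777.14) is farther along the same chromosome, at 142325837 to 142373753 on the minus strand.

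Promoter windows from RefSeq (GRCm38.p6, the assembly behind mm10) cover 250 bases before and 50 bases after each transcript start, and all 9 members have at least 1. They were searched on both strands for GAAA, any 2 bases and GAAA again, the core of the interferon-stimulated response element, and for TTCNNNGAA, the gamma-activated site. The first motif was found in 3.44% of all 32851 windows, and 0.225% of windows held at least 2 matches. The windows of Ifit1, Ifit3, Ifit3b and Ifitm3 held 2 matches each, that of Ifitm2 held 1, and those of Ifit2, Ifitm1, Ifitm6 and Ifitm10 held none. The windows of 5 members are shown, from 250 bases before to 30 bases after the start, because they set members with matches beside Ifit2 and Ifitm6, which have none. Capitals mark the matches to the response element core or its reverse complement, and each window is written from 5′ to 3′ on the strand of its gene.
Ifit1 (chr19:34640639-34640918, plus strand): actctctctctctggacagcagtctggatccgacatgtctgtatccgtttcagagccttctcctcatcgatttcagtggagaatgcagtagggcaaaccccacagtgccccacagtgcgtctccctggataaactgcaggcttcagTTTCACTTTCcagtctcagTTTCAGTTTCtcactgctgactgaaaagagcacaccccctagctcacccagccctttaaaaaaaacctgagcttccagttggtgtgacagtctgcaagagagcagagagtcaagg
Ifit3 (chr19:34583279-34583558, plus strand): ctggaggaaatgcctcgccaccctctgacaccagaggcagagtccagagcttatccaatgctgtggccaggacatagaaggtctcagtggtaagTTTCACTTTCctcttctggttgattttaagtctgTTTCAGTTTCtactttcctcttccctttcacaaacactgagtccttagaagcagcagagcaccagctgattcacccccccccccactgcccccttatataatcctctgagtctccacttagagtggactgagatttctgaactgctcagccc
Ifit2 (chr19:34550444-34550723, plus strand): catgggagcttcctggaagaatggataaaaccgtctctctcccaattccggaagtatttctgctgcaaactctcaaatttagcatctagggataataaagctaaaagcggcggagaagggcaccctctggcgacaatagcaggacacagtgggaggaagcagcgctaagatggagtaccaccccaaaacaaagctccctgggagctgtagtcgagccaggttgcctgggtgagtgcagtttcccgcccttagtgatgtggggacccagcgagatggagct
Ifitm3 (chr7:141010715-141010994, minus strand): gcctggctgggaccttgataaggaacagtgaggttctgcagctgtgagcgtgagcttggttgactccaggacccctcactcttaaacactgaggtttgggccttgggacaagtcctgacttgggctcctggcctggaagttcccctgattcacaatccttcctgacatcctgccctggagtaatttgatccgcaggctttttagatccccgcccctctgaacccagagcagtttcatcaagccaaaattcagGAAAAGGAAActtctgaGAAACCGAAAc
Ifitm6 (chr7:141016863-141017142, minus strand): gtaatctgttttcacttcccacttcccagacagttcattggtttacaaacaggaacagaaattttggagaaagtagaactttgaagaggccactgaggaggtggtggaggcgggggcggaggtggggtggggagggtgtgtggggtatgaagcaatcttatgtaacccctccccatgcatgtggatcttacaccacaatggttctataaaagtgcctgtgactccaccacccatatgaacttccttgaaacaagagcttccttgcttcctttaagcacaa
In Ifit1 the matches TTTCACTTTC and TTTCAGTTTC, both in reverse complement, lay 104 to 95 and 85 to 76 bases before the start. The same 10-base sequences lay 156 to 147 and 122 to 113 bases before the start of Ifit3, and 188 to 179 and 154 to 145 bases before that of Ifit3b. The windows of Ifit3 and Ifit3b share an identical stretch of 169 bases. In Ifitm3, GAAAAGGAAA and GAAACCGAAA lay 2 to 11 and 19 to 28 bases after the annotated start. The second motif was found in 8.30% of all windows. Among the members it occurred once each in Ifit2, Ifitm6 and Ifitm3, and in Ifitm3 it overlapped the later match to the response element core. A match is a run of letters, and a window without one says only that these letters are absent from it. Some GENCODE transcripts start outside the windows, and their start regions were not searched. Among them are coding transcripts of Ifitm6 that start at 141017558 and 141017924, and one of Ifitm1 that starts at 140967221.

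Both annotated transcripts of Ifit2 start at the window shown, 22357 and 22373 bases ahead of their last exon. That exon starts at 34573067 and makes up 87.8% of the longer transcript. The start of Ifit1 has a neighbour on the opposite strand. The RefSeq start of Ifit1bl2, a further IFIT gene, lies 146 bases away, so the 2 windows overlap by 245 bases and hold the same matches.

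Deposited normalized counts summed to between 33700000 and 34500000 per sample, and the spacing of low values put the depth at about 31600000 to 38100000 reads. Sirt1 itself (ENSMUSG00000020063.16) ranged from 1715 to 2097 normalized counts in labelled Sirt1-deleted spleens and from 1735 to 1909 in controls. Its log2 difference was 0.05 (SE 0.06, limma adjusted p = 0.568), and the labels do not say which part of the gene is deleted. The gene-level value therefore does not check the label, and these 5 samples are referred to by their label only. Of the 15276 genes tested, 16.8% were called higher and 19.4% lower. Upper-quartile rescaling moved the share of higher calls among all calls from 46.4% to 58.2% and the median log2 difference of all genes from -0.00014 to 0.058. T lineage marker genes, 12 of 12 tested, summed to 149110 to 168507 in the labelled Sirt1-deleted samples and 172120 to 181809 in controls, so T lineage RNA was abundant in both groups. Tcf7 weighs most in this sum, with means of 58426 and 77942, so the lower sum does not stand for the markers in general. Of the 12, 1 was called higher, 3 lower and 8 were not called.

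In the labelled Sirt1-deleted spleens, 7 of the 9 members were higher than in controls, where the background for that call is 16.8% of tested genes. They were 3 of the 4 IFIT genes and 4 of the 5 IFITM genes. None was lower in the limma test, with 0 members at an unadjusted p under 0.05 and a background of 19.4%. Ifit2 and Ifitm10 were not called. The median log2 difference was 3.23 over the IFIT genes and 1.05 over the IFITM genes, against -0.00014 over all tested genes. The values of 4 members (Ifit1, Ifit3, Ifitm3 and Ifitm6) did not overlap between the groups, a pattern found as higher in 11.1% of tested genes. A call with a log2 difference of at least 1 was made for 6 members and for 3.95% of tested genes, one of at least 2 for 5 members and 0.563%, and one of at least 3 for 3 members and 0.111%. All log2 differences are on the log2(normalized count + 1) scale, on which differences of low genes come out too small.

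**Figure D1:**
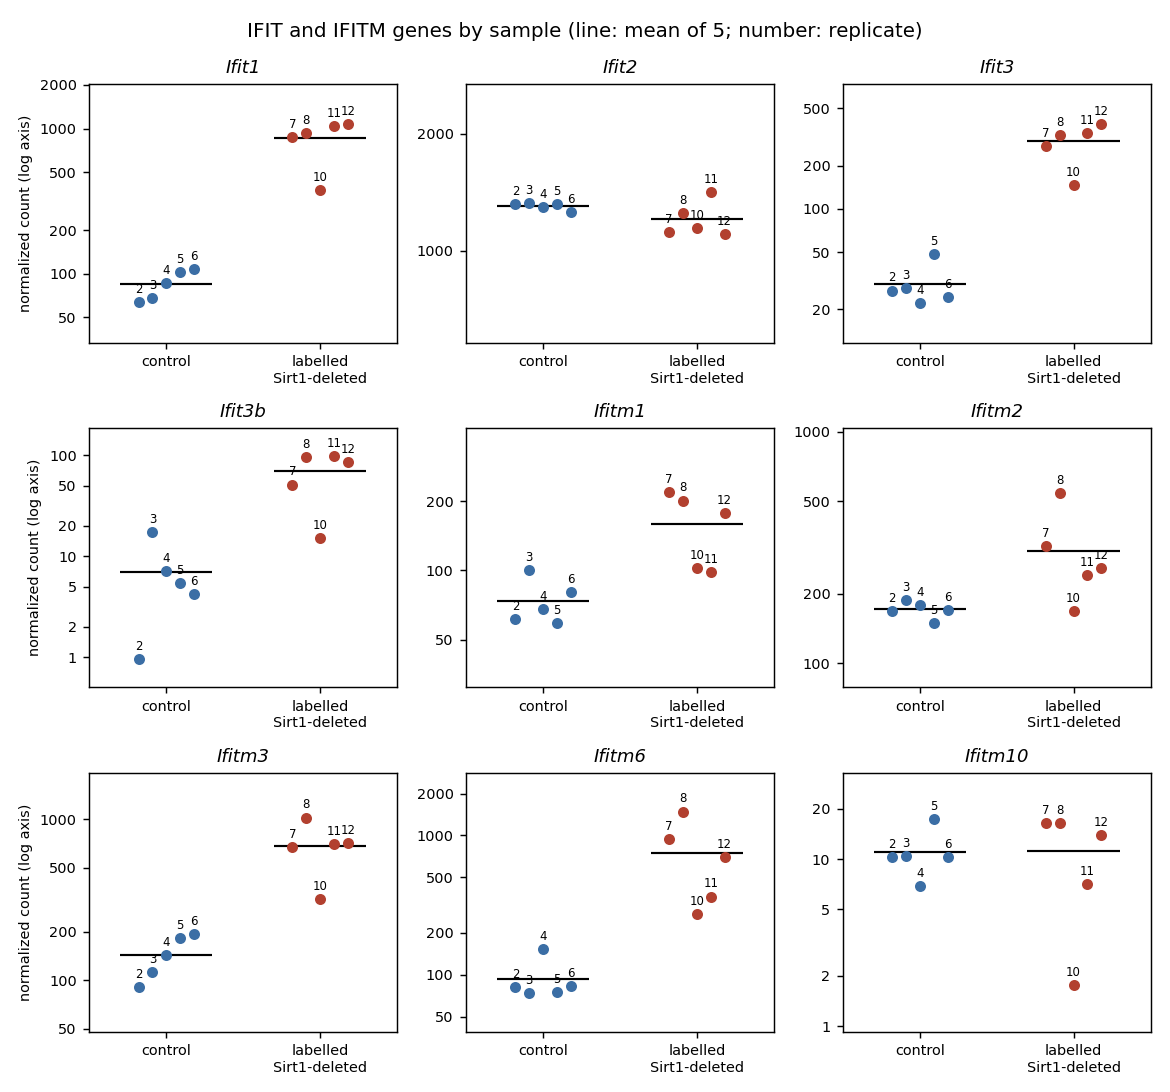
Normalized count (log axis) of each IFIT and IFITM gene in the 5 control samples (blue) and the 5 labelled Sirt1-deleted samples (red), with the replicate number above each point and a line at the group mean. Ifit1, Ifit3, Ifitm3 and Ifitm6 have no overlap between the groups, Ifit2 and Ifitm10 are near the same level in both, and labelled Sirt1-deleted replicate 10 is the lowest of its group in 7 of the 9 genes, the exceptions being Ifit2 and Ifitm1.

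Ifit1, whose protein binds viral RNA that lacks the cap methylation of host messages, measured 881, 935, 378, 1048 and 1074 normalized counts in labelled Sirt1-deleted replicates 7, 8, 10, 11 and 12. Controls 2, 3, 4, 5 and 6 measured 63.5, 68.1, 85.8, 102 and 107. Replicate 10 was well below the other labelled Sirt1-deleted samples and still above every control. The fold difference from the fit was 9.61 (95% interval 6.48 to 14.2; limma adjusted p = 3.52e-05).

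Ifit3, which encodes a partner that stabilizes IFIT1 on RNA in human cells, measured 274, 324, 146, 337 and 391 in the same labelled Sirt1-deleted samples. Controls measured 27.0, 27.9, 22.2, 48.3 and 24.4. The groups did not overlap, and replicate 10 was again the lowest of its group. The fold difference was 9.43 (95% interval 6.28 to 14.2; limma adjusted p = 3.52e-05).

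Ifit3b, a near-identical copy of Ifit3, measured 51.2, 96.5, 15, 97.3 and 85.7 in the labelled Sirt1-deleted samples and 0.962, 17.3, 7.09, 5.49 and 4.24 in controls. Replicate 10 fell below control 3, so the groups overlapped. The log2 difference was 3.22 (SE 0.61, limma adjusted p = 0.00229), but it did not pass in an exact rank-sum test (adjusted p = 0.0512). Of the distinct 31-base words in the Ifit3 transcript, 61.8% also occur in Ifit3b, and of those in Ifit3b 54.1% occur in Ifit3, so the split between them rests on the quantifier and is uncertain.

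Ifit2, whose protein is a further RNA-binding member of the family, differed in level and pattern from its neighbours. It measured 1120, 1250, 1142, 1417 and 1101 in the labelled Sirt1-deleted samples and 1321, 1331, 1298, 1322 and 1260 in controls. The coefficient of variation was 2.18% over controls. Labelled Sirt1-deleted replicates 7, 8, 10 and 12 lay below every control, and replicate 11 lay above every control. The log2 difference was -0.12 (95% interval -0.27 to 0.03, limma adjusted p = 0.196). Without labelled Sirt1-deleted replicate 11, the sample above every control, it was -0.18 and was called lower (limma adjusted p = 0.0291). All 3841 of its 31-base words were found in no other gene of the annotation, so shared sequence does not enter this value. The gene-level value sums all transcripts and does not show which start they used.

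The difference between Ifit2 and its neighbours was tested as a ratio within each sample, which does not move with the scaling of samples. The log2 ratio of Ifit1 to Ifit2 averaged -3.95 ± 0.35 in controls and -0.57 ± 0.60 under the Sirt1-deleted label (SD, n = 5 each). An exact two-sided permutation test gave p = 0.00794, the lowest value possible with these group sizes, and an adjusted p of 0.0130 over the 36 pairs of members. The log2 ratio of Ifit1 to Ifit3 averaged 1.51 ± 0.46 in controls and 1.53 ± 0.13 under the Sirt1-deleted label, a difference of 0.03 that did not pass (SD, n = 5 each; exact permutation p = 0.905). Ifit1 stood at between 2.58 and 3.20 to 1 in the labelled Sirt1-deleted samples and between 2.09 and 4.26 to 1 in controls.

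The remaining IFIT genes in the table, Ifit1bl1 and Ifit1bl2, were both called higher. Ifit1bl2, which shares its start region with Ifit1, measured 20.4 to 40.3 in the labelled Sirt1-deleted samples and 2.88 to 10.6 in controls, with no overlap (log2 difference 2.26, SE 0.36, limma adjusted p = 9.99e-04). Ifit1bl1 measured 93.4 to 258 and 44.2 to 101, with 1 labelled Sirt1-deleted sample inside the control range (log2 difference 1.39, SE 0.28, limma adjusted p = 0.00323). Each of its 2 promoter windows held 1 match to the response element core.

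**Figure D2:**
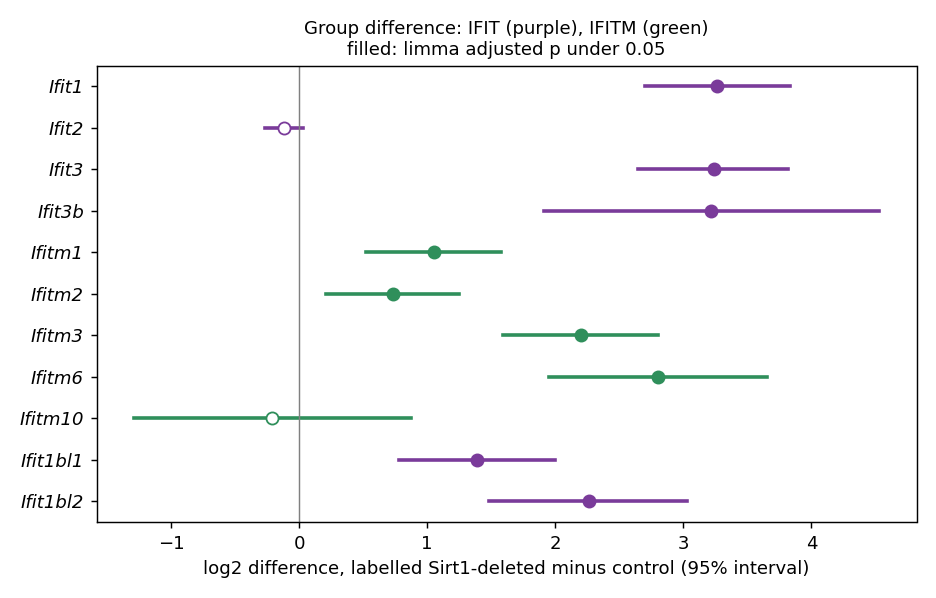
Log2 difference (labelled Sirt1-deleted minus control, x axis) with its 95% interval for the IFIT genes in purple and the IFITM genes in green, including Ifit1bl1 and Ifit1bl2, with filled points for limma adjusted p under 0.05. Ifit1, Ifit3 and Ifit3b lie at 3.22 to 3.26, the IFITM genes spread from -0.21 to 2.80, and the intervals of Ifit2 and Ifitm10 include 0.

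Among the IFITM genes, Ifitm6 and Ifitm3 had the larger differences. Ifitm6 measured 948, 1486, 274, 365 and 702 normalized counts in labelled Sirt1-deleted replicates 7, 8, 10, 11 and 12, and 81.4, 74.3, 153, 75.1 and 83.8 in controls 2 to 6. The groups did not overlap, but the labelled Sirt1-deleted samples spanned a 5.42-fold range. The fold difference was 6.95 (95% interval 3.86 to 12.5; limma adjusted p = 6.03e-04). Every 31-base word of Ifitm6 was particular to it in the annotation.

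Ifitm3, whose protein acts in endosomes against influenza and other enveloped viruses, measured 670, 1026, 321, 699 and 712 in the labelled Sirt1-deleted samples. Controls measured 91.1, 113, 143, 183 and 193. The lowest labelled Sirt1-deleted sample, replicate 10, lay above the highest control. The fold difference was 4.59 (95% interval 3.02 to 6.99; limma adjusted p = 3.87e-04).

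Ifitm1, whose protein acts mainly at the cell surface, measured 218, 201, 102, 98.1 and 178 in the labelled Sirt1-deleted samples and 61.8, 99.9, 68.1, 59.1 and 80.5 in controls. Replicate 11 lay just below the highest control, and replicate 10 just above it. The log2 difference was 1.05 (SE 0.25, limma adjusted p = 0.00663), but it did not pass in the exact rank-sum test (adjusted p = 0.0512).

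Ifitm2, a close relative of Ifitm3, measured 322, 545, 168, 241 and 257 in the labelled Sirt1-deleted samples and 169, 187, 179, 150 and 170 in controls. Replicate 10 lay within the control range. The log2 difference of 0.73 (SE 0.24, limma adjusted p = 0.0307) passed narrowly. The call was lost without labelled Sirt1-deleted replicate 7 (adjusted p = 0.0683), control 2 (0.0643), control 5 (0.0679) or control 6 (0.0545), without the intensity trend (0.0573) and in the rank-sum test (0.184). Only 44.5% of the 31-base words of Ifitm2 occur in no other gene, and 38.1% occur in Gm45717, an annotated locus that overlaps it, so its value is uncertain as well.

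Ifitm10, an outlying relative of the cluster genes, was near the lower limit of the test. It measured 16.4, 16.4, 1.76, 7.07 and 14.0 in the labelled Sirt1-deleted samples and 10.3, 10.4, 6.89, 17.3 and 10.3 in controls. The groups overlapped, and the log2 difference was -0.21 (95% interval -1.29 to 0.87, limma adjusted p = 0.775). Its sign turned without replicate 10 (0.26), so no direction is given. Ifitm5 and Ifitm7, the other family members in the table, were below the filter, with means of 3.43 and 10.9 in the labelled Sirt1-deleted samples and 1.91 and 8.43 in controls.

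The families were contrasted through the 20 pairs of 1 IFIT and 1 IFITM gene. The log2 ratio differed between the groups in 15 of them (exact two-sided permutation tests, adjusted over all 36 pairs of members). The IFIT gene had the larger difference in 11 of these, and the 4 in which the IFITM gene did were all pairs with Ifit2. Pairs within a family differed as well, 3 of 6 IFIT pairs and 7 of 10 IFITM pairs, and 25 of all 36 pairs passed. A differing ratio was therefore not particular to pairs across the families. Pairs share genes, so they are not independent of one another. The ratio of Ifit1 to Ifitm3 went from 0.70, 0.605, 0.601, 0.561 and 0.555 in controls 2 to 6 to 1.31, 0.911, 1.18, 1.5 and 1.51 in labelled Sirt1-deleted replicates 7, 8, 10, 11 and 12. The samples did not overlap, and the difference of 1.07 on the log2 scale passed (exact permutation p = 0.00794, adjusted p = 0.0130). Controls whose Ifit1 level was higher also had more Ifitm3, so that this ratio had an SD of only 0.13 on the log2 scale among them.

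Ifitm6 did not separate from Ifit1, Ifit3 or Ifit3b in this way. Its log2 ratio with Ifit1 differed by 0.47 between the groups (means 0.36 ± 0.82 and -0.10 ± 0.52, SD over 5 samples; exact permutation p = 0.317), which does not show that both genes changed alike. The ratio of Ifit1 to Ifitm6 ranged from 0.629 to 2.87 over the labelled Sirt1-deleted samples. Members of the IFITM family also differed among themselves. Ratios of Ifitm2 to Ifitm6 lay between 1.17 and 2.49 in controls and between 0.340 and 0.660 in the labelled Sirt1-deleted samples (log2 difference -2.07, exact permutation p = 0.00794, adjusted p = 0.0130), and 7 of the 10 pairs of IFITM genes differed. Ifitm3 and Ifitm6 did not pass (difference -0.60, exact permutation p = 0.143).

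Levels of different genes were compared per kilobase of the longest coding transcript. In controls the order of mean normalized counts per kilobase was Ifit2 (342), Ifitm2 (261), Ifitm3 (213), Ifitm6 (115), Ifitm1 (83.8), Ifit1 (32.1), Ifit3 (17.1), Ifit3b (3.51) and Ifitm10 (3.23). The ranges over samples overlapped for Ifitm2 and Ifitm3, Ifitm3 and Ifitm6, Ifitm6 and Ifitm1, Ifit1 and Ifit3, and Ifit3b and Ifitm10. Ifit2 lay above every other member in all 5 controls. In the labelled Sirt1-deleted samples Ifitm3 (1011 ± 369 per kilobase, SD, n = 5) and Ifitm6 (929 ± 602, SD, n = 5) came first, with overlapping ranges. Ifitm2 (468), Ifit1 (325), Ifit2 (316), Ifitm1 (181), Ifit3 (169), Ifit3b (34.6) and Ifitm10 (3.27) followed by their means. The ranges of neighbours in this order overlapped from Ifitm3 down to Ifit2, and again for Ifitm1 and Ifit3, so the ranges do not order these neighbours. Genes farther apart in the first run could still be ordered. The range of Ifitm3 (474 to 1513) lay above those of Ifit1 (142 to 404) and Ifit2 (288 to 371). Ranges also leave aside the pairing within samples. The ratio of Ifitm2 to Ifitm3, whose transcripts are 655 and 678 bases long, was 0.345 to 0.532 in these samples. Ifit2 and Ifitm1, Ifit3 and Ifit3b, and Ifit3b and Ifitm10 did not overlap.

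Markers of myeloid cells also differed between the groups, where the background for a higher call is 16.8% of tested genes. Of the 15 neutrophil markers, 14 were called higher, with a median log2 difference of 2.20. Their summed level was 29148 to 101447 in the labelled Sirt1-deleted samples and 9215 to 12725 in controls. Of the 14 tested monocyte and macrophage markers, 12 were called higher, and their sums were 4599 to 6419 and 2820 to 3244. Among dendritic cell markers 3 of 8 were called higher. One of these was Bst2, which interferon also induces. No marker of any list was at 0 in every sample. In bulk RNA, more cells of a type and more RNA per cell cannot be told apart.

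The neutrophil sum rests mainly on S100a9, Ngp, Ltf and S100a8, with means of 12808, 12466, 9746 and 9712 under the Sirt1-deleted label. The summed neutrophil markers were 2.84, 3.91, 4.42, 5.93 and 9.90 times the control mean in labelled Sirt1-deleted replicates 10, 11, 12, 7 and 8. In the same order Ifitm6 was at 2.93, 3.90, 7.51, 10.1 and 15.9 times its control mean. Ifitm2, at 0.984, 1.41, 1.51, 1.88 and 3.19 times, had the same order of samples. Ifitm1, at 1.38, 1.33, 2.41, 2.95 and 2.72 times, had another order, with replicate 7 highest and replicate 11 lowest. Ifit1, at 4.44, 12.3, 12.6, 10.3 and 11 times, also had another order. It was lowest in replicate 10, as the neutrophil sum was, and between 10.3 and 12.6 times in the other 4 samples. Ifitm3, at 2.22, 4.83, 4.92, 4.63 and 7.09 times, was lowest in replicate 10 and highest in replicate 8. Among controls, replicate 4 was the highest both in Ifitm6, at 153, and in the neutrophil sum, at 12725. The lowest did not coincide: control 2 had the lowest sum (9215) with Ifitm6 at 81.4, and control 3 (9797) had the lowest Ifitm6, at 74.3. Ifitm2 was highest in control 3, at 187, against 179 in control 4. The part of neutrophil RNA in the differences of the IFIT and IFITM genes was not tested.

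**Figure D3:**
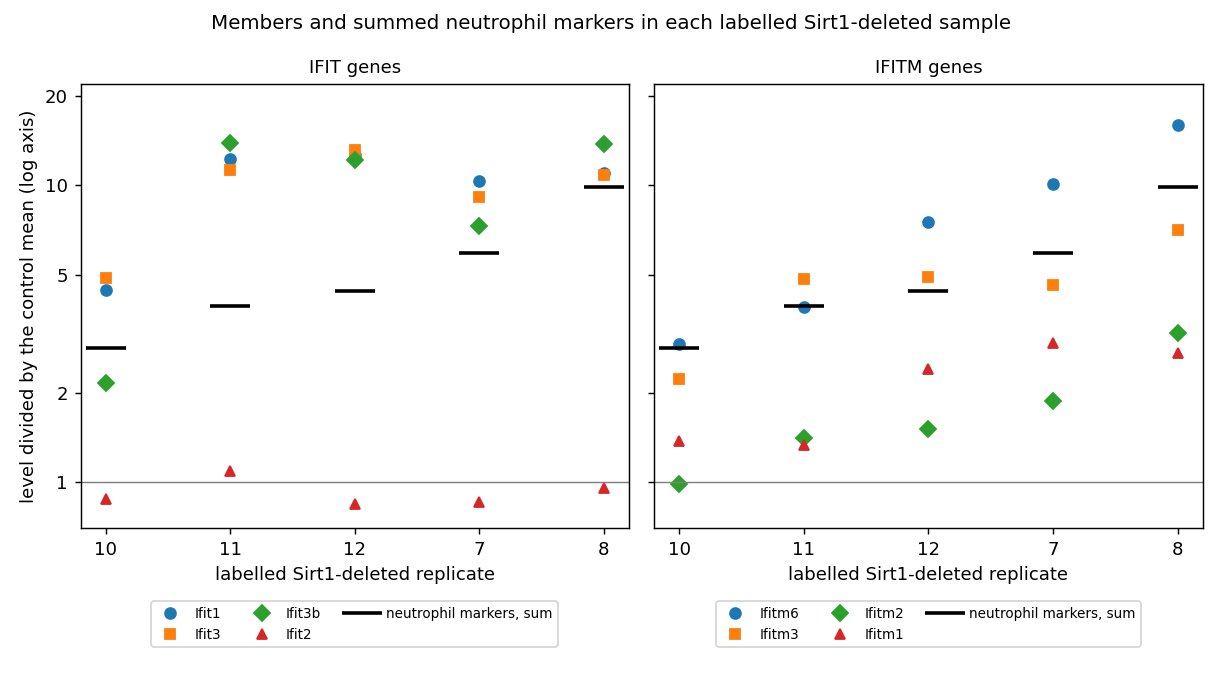
Level of each gene divided by its control mean (log axis) in the 5 labelled Sirt1-deleted samples, which are arranged by the summed level of 15 neutrophil markers (black bars), with IFIT genes at left and IFITM genes at right. Ifitm6 and Ifitm2 rank the samples as the neutrophil sum does, Ifit1 and Ifit3 are low in replicate 10 and near 10 times the control mean in the others, and Ifit2 stays near 1.

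The genes with the nearest profiles also differed between members. Likeness was the root mean square difference between centred log2 profiles over the 10 samples, among 10745 genes outside the 9 members with a mean of at least 100, and it is given as a description. Ifit1 and Ifit3 were nearer to each other (0.30) than to any of these. Outside the members, nearest to Ifit1 were Oas2 (0.32), Mx2 (0.41) and Rtp4 (0.46), and nearest to Ifit3 were Oas2 (0.34), Mx2 (0.40) and Ifi213 (0.43), all of them interferon-induced genes. For Ifit3b they were Oas2 (0.76), Rtp4 (0.81) and Ifi213 (0.81), and for Ifitm3 they were Oas1g (0.27), Rtp4 (0.29) and Irf7 (0.31). Nearest to Ifitm6 were Chil1 (0.25), Ltf (0.26) and Pglyrp1 (0.28), of which Ltf and Pglyrp1 encode proteins of neutrophil granules. Socs3 (0.16), Cfp (0.20) and Itgb7 (0.21) were nearest to Ifitm1, and Ncf4 (0.16), Itga5 (0.18) and Gsn (0.18) to Ifitm2. Cfp encodes properdin, and Ncf4 a subunit of the phagocyte oxidase. Ifit2 and Ifitm10, which were not called, lay nearest to Zfp868 (0.04), Mrpl39 (0.05) and Supt4a (0.05), and to Prr7 (0.52), Cd79b (0.52) and Marveld2 (0.53). The measure takes in the size of the group difference, so members with unlike differences have unlike neighbours. The root mean square of the centred profile itself was 0.11 for Ifit2 and 0.78 for Ifitm10, against 1.69 for Ifit1, so these 2 matches say little.

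Of the 10 tested genes that flank the members, 2 were called, where the background for a call in either direction is 36.1%. Around the Ifit cluster, Lipa (log2 difference -0.07, limma adjusted p = 0.524) and Pank1 (-0.04, adjusted p = 0.642) were not called, and Kif20b was higher by 0.23 (adjusted p = 0.0243). Around the Ifitm cluster, 5 of 6 tested neighbours were not called, and Sigirr, which encodes an inhibitor of interleukin-1 receptor signalling, was lower (-0.25, limma adjusted p = 0.0370). Ctsd, next to Ifitm10, was not called (-0.15, adjusted p = 0.0932).

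The interferon pathway was followed by role, where the background for a call is 16.8% of tested genes higher and 19.4% lower. Of the 19 interferon genes listed, only Ifnz, Ifng and Ifnab had values, so Ifnb1 and the listed Ifna genes could not be compared. Ifnab was below the filter and was not tested. Ifnz, an interferon zeta gene, passed the filter and was not called (9.57 ± 6.89 against 12.9 ± 5.76, SD, n = 5 each; limma adjusted p = 0.374). Ifng, which encodes interferon gamma, was below the filter, at 4.44 ± 2.97 in controls and 7.57 ± 2.04 under the Sirt1-deleted label (SD, n = 5 each).

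Receptor genes moved in both directions: 2 of 6 were called higher and 2 lower. Ifnlr1, which encodes the specific chain of the type III interferon receptor, rose from 12.6 ± 5.43 to 52.0 ± 22.2 (SD, n = 5 each; log2 difference 1.96, limma adjusted p = 0.00101). Ifngr2 rose by 0.39 on the log2 scale (limma adjusted p = 0.0211). Ifngr1 fell by 0.42 (limma adjusted p = 3.90e-04) and Ifnar1, a chain of the type I receptor, fell by 0.19 (limma adjusted p = 0.0212).

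Of the 11 kinases and transcription factors reported, 6 were called higher and 2 lower, with a median log2 difference of 0.17. Irf7, which amplifies the type I response, rose from 410 ± 59.4 to 1813 ± 445 (SD, n = 5 each; log2 difference 2.11, limma adjusted p = 3.52e-05). Irf9, whose product binds the response element, and Stat2, its partner, rose by 1.04 and 0.40 on the log2 scale (limma adjusted p = 2.96e-04 and 0.00573). The kinase genes Jak1 and Jak2 fell by 0.35 and 0.45 (limma adjusted p = 0.00303 and 0.00163).

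All 9 inhibitor genes were called, 7 higher and 2 lower. Isg15, a ubiquitin-like modifier that stabilizes USP18 in human cells, rose by 2.22 and Usp18, which blocks the type I receptor, by 1.83 on the log2 scale (limma adjusted p = 1.01e-04 and 1.52e-04). Pias1 and Ptpn6 fell by 0.13 and 0.28 (limma adjusted p = 0.0385 and 0.00446). Of the 8 factors that act with IFIT or IFITM proteins or upstream of them, 0 were called higher and 4 lower (background 16.8% and 19.4%). These were Eif3c, Eif3e, Cmtr1 and Zmpste24, a protease known as a partner of IFITM proteins.

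**Figure D4:**
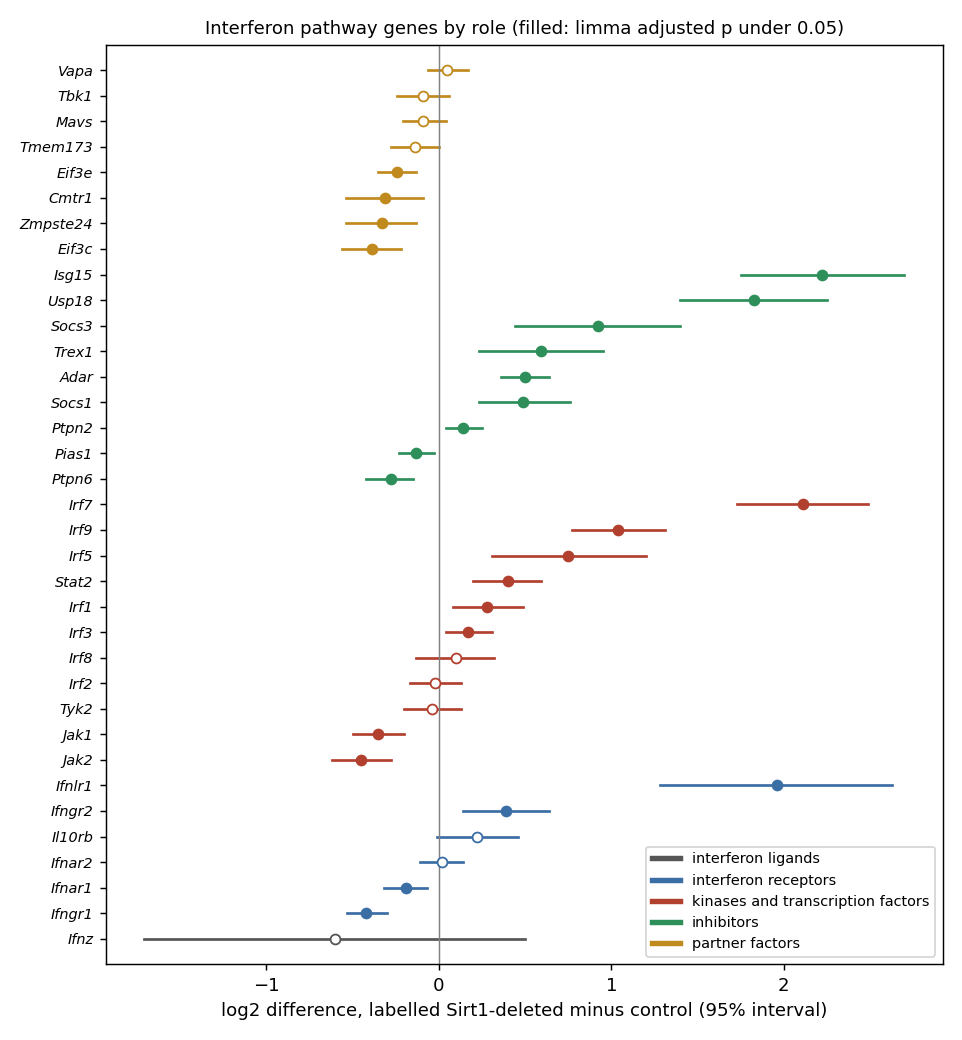
Log2 difference (labelled Sirt1-deleted minus control, x axis) with its 95% interval for tested genes of the interferon pathway, coloured by role, with filled points for limma adjusted p under 0.05. Isg15, Irf7, Ifnlr1 and Usp18 lie farthest to the right, at 1.83 to 2.22. Ifnz, which was not called, lies farthest to the left, at -0.60, followed by Jak2, Ifngr1, Eif3c and Jak1 at -0.45 to -0.35.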

How the data were processed

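Per the submitters' processing notes, the authors used kallisto 0.44.0 and DESeq with build mm10. The deposited signal values are gene counts that the authors scaled by DESeq factors, as the table is named. The transcript annotation and any gene filter are not given in the sources used here. The 1 table has 10 sample columns and 0 others. Of low values, up to 8.5 reads, 71.6% to 74.7% were whole to within 0.1, so reads were not recovered and no count test was run.

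log2(value + 1) was fitted with limma 3.58.1 in R 4.3.3 (group only, intensity trend) for the 15276 genes with a mean of at least 10, which all 9 members passed, with Benjamini-Hochberg adjustment over all of them and a threshold of 0.05. The fit was tested on simulated data, in which samples varied less than the labelled Sirt1-deleted samples did in the members called higher. That test therefore does not speak to genes as variable as these. Pairs of members were tested by exact two-sided permutation over 252 assignments. Named genes are the members, 3 nearest profiles each, and fixed lists, of which 1 gene is not reported here. Members and lists were chosen with earlier results of these data known. Shared 31-base words and transcript lengths came from GENCODE M21, whose match to the authors' annotation is unknown, and promoters from RefSeq. Alternatives were other pseudocounts, filters, scalings, weights, thresholds, a rank-sum test and the omission of samples.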

Additional observations from a re-analysis of the deposited data

Results flagged for a closer look

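For the 9 members and Sirt1, the distance of the highest or lowest of 5 samples from the next was taken as a share of the whole range. It exceeded the critical value of 0.71 in 3 of 20 sets, where chance at 1 in 20 gives 1.

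Labelled Sirt1-deleted replicate 10 was low for Ifit1, at 378 normalized counts against 881 in the next lowest sample (ratio 0.722). Control 5 was high for Ifit3, at 48.3 against 27.9 (ratio 0.782). Control 4 was high for Ifitm6, at 153 against 83.8 (ratio 0.879), and it also had the highest summed neutrophil markers among controls, at 12725.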

How the results depend on the processing

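No paired analysis was possible because no number occurs in both groups. Of the members, 7 were called higher under the alternatives that kept all samples, except that the exact rank-sum test called 4 and limma without trend and a stricter threshold of 0.01 called 6, and a minimum mean of 50, which leaves out Ifit3b and Ifitm10, called 6. Without 1 sample the number was 6 to 7. The number called lower was 0 to 1 without 1 sample, and the omission of labelled Sirt1-deleted replicates 10 and 11 together, chosen after earlier results of these data were known, gave 1. That gene was Ifit2 (-0.176, limma adjusted p = 0.0334). Ifitm10 turned positive with sample weights (0.069), without labelled Sirt1-deleted replicate 10 (0.257) and without both (0.517), and ranged from -0.408 to 0.257 without 1 sample. The ratio of an IFIT to an IFITM gene differed in 13 to 16 of 20 pairs without 1 sample, in 13 without both, and in 10 of the 12 pairs left by a minimum mean of 50. Over all genes, 5518 were called, 3659 with the rank-sum test, 2850 at an adjusted p under 0.01 and 4201 to 6260 without 1 sample. The difference of Sirt1 stayed between 0.005 and 0.108 and was not called in any fit. Ifit3b and Ifitm10 rest on few reads, and their intervals are the widest among the members.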
